A study of Mus musculus with 6 samples.

Results

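A set of 9 genes that mark successive steps of B cell development were followed in the proximal tibial epiphysis of 14-day-old mice: *Ebf1*, *Pax5*, *Rag1*, *Rag2*, *Dntt*, *Vpreb1*, *Igll1*, *Cd79a* and *Ms4a1*. The 9 genes were chosen by name for their known stage, and each was found by its Ensembl identifier among the 47729 genes of the deposited table. The mice belonged to the random-bred Control line (ICR stock) or to LS1, a Longshanks line bred from the same stock for longer tibiae relative to body mass. There were 3 Control and 3 LS1 mice from different families, all aged 14 days and untreated, and both epiphyses of each mouse were pooled into 1 library. The tissue ran from the articular surface through the growth plate into the metaphysis, and bone marrow was included. All LS1 mice came from a single selected line, so selection and chance drift in that line cannot be told apart. Values are normalized read counts, that is, reads per gene divided by the size factor of the library, and a fold change is LS1 minus Control on the log2(value + 1) scale.

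B lymphocytes form in the marrow from progenitors that depend on interleukin-7 and stromal cells. EBF1 and PAX5 are transcription factors that commit a progenitor to the B lineage. RAG1 and RAG2 form the recombinase that cuts immunoglobulin gene segments, and terminal transferase, encoded by *Dntt*, adds bases at the joints of the heavy chain. A newly made heavy chain is tested with the surrogate light chain, built from VPREB1 and IGLL1 (λ5), in the pre-B cell receptor. CD79A is the signaling chain of both the pre-B receptor and the B cell receptor, and *Ms4a1* encodes CD20, which appears late in the series. In bulk tissue, fewer cells of a type and less RNA per cell cannot be told apart.

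The 9 genes fall at 7 places in the genome (GRCm38), since both *Rag* genes and both surrogate light chain genes are neighbors. *Rag2* lies at chr2:101624718-101632529 on the plus strand and *Rag1* at chr2:101638282-101649501 on the minus strand, 5752 bp apart with their 3′ ends facing each other. *Igll1* (chr16:16860671-16863985) and *Vpreb1* (chr16:16868403-16870843) are both on the minus strand and 4417 bp apart. The 250 bases before the RefSeq start sites of these 4 genes (GRCm38.p6) are given here because the balance within both pairs is a result described further on. Each runs 5′ to 3′ on the strand of its gene, and capitals mark the letters of an E-box (CANNTG) or of the core EBF motif (CCCNNGGG). The windows are chr2:101649533-101649782 for *Rag1*, chr2:101624462-101624711 for *Rag2*, chr16:16869256-16869505 for *Vpreb1* and chr16:16863986-16864235 for *Igll1*.
Rag1: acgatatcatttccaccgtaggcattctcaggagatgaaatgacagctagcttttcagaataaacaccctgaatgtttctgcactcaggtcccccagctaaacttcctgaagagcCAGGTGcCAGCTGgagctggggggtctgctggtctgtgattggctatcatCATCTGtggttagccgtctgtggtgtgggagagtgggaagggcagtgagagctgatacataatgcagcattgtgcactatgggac
Rag2: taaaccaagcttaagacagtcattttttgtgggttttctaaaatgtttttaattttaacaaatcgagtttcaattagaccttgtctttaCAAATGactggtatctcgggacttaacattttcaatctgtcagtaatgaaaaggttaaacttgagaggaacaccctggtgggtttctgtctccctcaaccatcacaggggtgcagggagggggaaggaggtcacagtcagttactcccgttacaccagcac
Vpreb1: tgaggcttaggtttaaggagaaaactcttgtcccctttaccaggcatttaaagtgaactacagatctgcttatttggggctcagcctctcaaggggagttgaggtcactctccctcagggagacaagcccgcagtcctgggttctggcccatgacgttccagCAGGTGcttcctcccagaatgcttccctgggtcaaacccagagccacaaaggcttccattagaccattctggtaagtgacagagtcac
Igll1: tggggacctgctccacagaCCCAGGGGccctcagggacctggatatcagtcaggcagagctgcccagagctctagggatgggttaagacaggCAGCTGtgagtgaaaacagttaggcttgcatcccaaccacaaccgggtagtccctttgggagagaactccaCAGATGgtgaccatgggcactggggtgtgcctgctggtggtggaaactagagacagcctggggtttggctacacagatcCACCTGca

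RefSeq windows were matched for 8 of the 9 genes, *Ebf1* with both of its start sites. The core EBF letters, which read the same on both strands, stood in 1 of these 9 windows, that of *Igll1*, where the match ended 223 bases before the start site. The same letters stood in 11.8% of all 32817 windows of that length. E-box letters, also the same on both strands and not overlapping the EBF match, were found in 8 of the 9 windows, and in 66.2% of all windows. The Ikaros letters TGGGAA, searched on both strands, were found in 2 of the 9 windows, those of *Rag1* and of the second *Ebf1* start, and in 21.6% of all windows. A match of letters describes the window and does not show binding.

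Total reads ranged from 68803249 to 88745366 per library, and 19308 genes with a mean of at least 20 reads were tested with limma. The first principal component held 35.1% of the variance and put LS1 replicate 3 at -4.29, between the Control libraries (-41.5 to -22.1) and the other LS1 libraries (43.7 and 50.1). LS1 replicate 2 differed from the rest in immune transcripts. The 15 interferon-stimulated genes summed to 52185 normalized counts there, to 31431 and 14900 in LS1 replicates 1 and 3, and to between 11543 and 19591 in the Control libraries.

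All 9 genes were abundant enough to be tested, and none differed between LS1 and Control after adjustment in limma (0 of 9). Over all genes, 0.0725% passed that threshold in either direction (14 of 19308) and 0.0622% passed it as lower in LS1. At an unadjusted p below 0.05, 4 of the 9 genes were lower in LS1 (*Ebf1*, *Pax5*, *Rag2* and *Vpreb1*), none was higher, and over all genes 5.86% were lower and 7.08% higher at that p. A negative log2 fold change was found for 8 genes, and *Cd79a* was near 0. The median of the 9 log2 fold changes was -0.40, against 0.0054 over all genes tested. edgeR's quasi-likelihood test also called 0 of the 9, with 0.0363% of all genes called. DESeq2 called *Rag2* alone as lower, in a test that called 0.991% of all genes lower (180 of 18171).

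**Figure D1:**
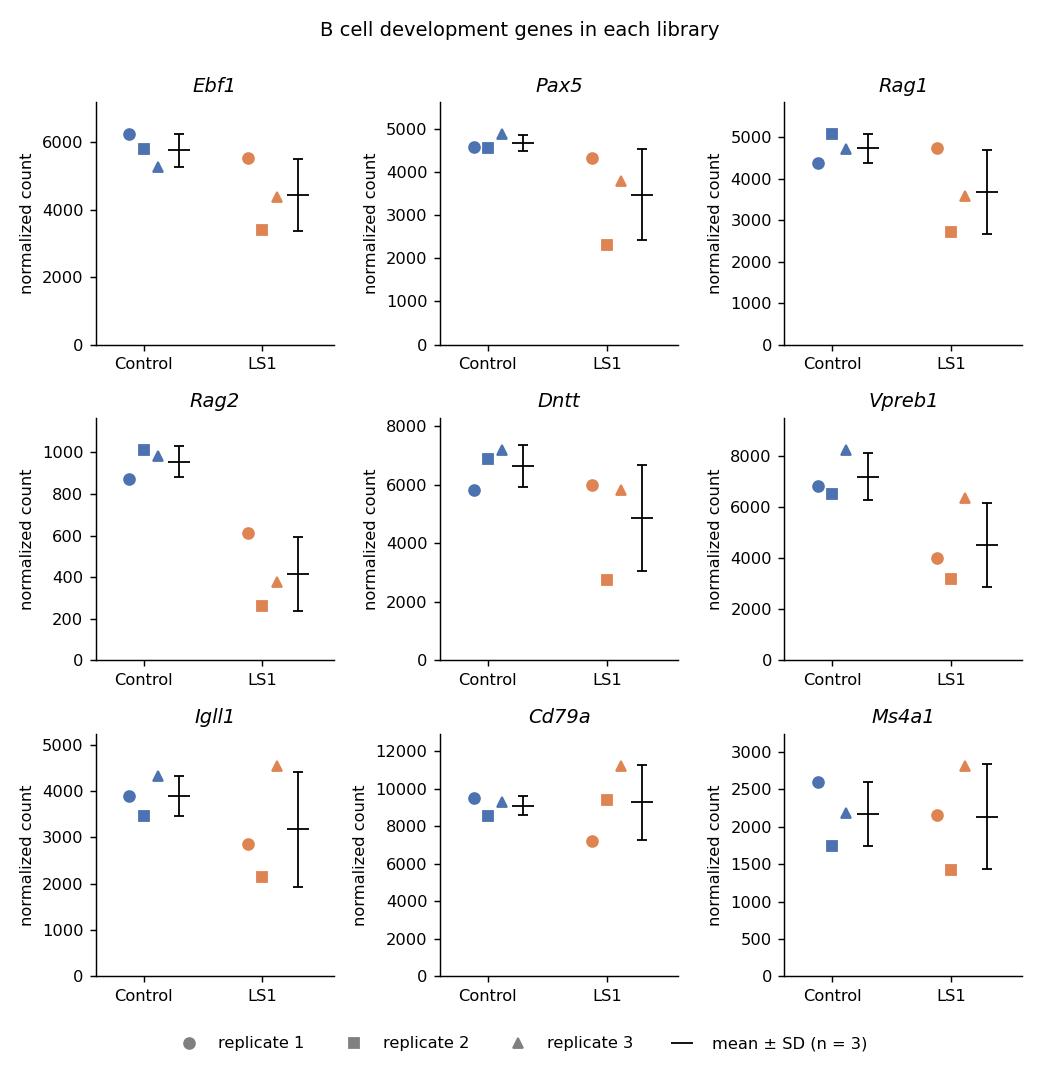
Normalized count (vertical axes, starting at 0) of each of the 9 genes in the 3 Control and 3 LS1 libraries, with the mean ± SD (n = 3). The LS1 points lie wholly below the Control points for *Pax5*, *Rag2* and *Vpreb1*, and overlap them for the other genes; LS1 replicate 2 is the lowest library in every panel but *Cd79a*.

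The genes of the 2 commitment factors had lower means in LS1, neither past adjustment. *Ebf1* (ENSMUSG00000057098, chr11:44617317-45008091) had 6238, 5783 and 5264 normalized counts in Control replicates 1 to 3, and 5534, 3384 and 4386 in LS1. The highest LS1 library lay inside the Control range and the other LS1 libraries lay below it. The log2 fold change was -0.40 ± 0.18 (SE, n = 3 per group, 95% interval -0.79 to -0.018), with an adjusted p of 0.364 in limma. *Pax5* (ENSMUSG00000014030, chr4:44524757-44710487) had 4582, 4543 and 4878 normalized counts in Control and 4329, 2297 and 3795 in LS1. Here the groups did not overlap, although LS1 replicate 1 was at 92.7% of the Control mean and LS1 replicate 2 at 49.2%. The log2 fold change of *Pax5* was -0.48 ± 0.21 (SE, 95% interval -0.93 to -0.019, limma adjusted p = 0.366). The ratio of *Ebf1* to *Pax5* within a library differed by 0.073 on the log2 scale between the groups, with overlapping values (exact permutation p = 0.6, two-sided). *Ebf1* is also used by marrow stroma and adipocyte progenitors. Of the other 3 *Ebf* genes, none passed the test, and the log2 fold changes were -0.47 for *Ebf2*, 0.25 for *Ebf3* and -0.39 for *Ebf4*.

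Among the recombination genes, *Rag2* showed the largest difference of the 9. *Rag2* (ENSMUSG00000032864) had 871, 1012 and 982 normalized counts in Control and 612, 264 and 376 in LS1. No LS1 library reached the Control range, and the 3 stood at 64.1%, 27.6% and 39.4% of the Control mean. The log2 fold change was -1.28 ± 0.27 (SE, n = 3 per group, 95% interval -1.88 to -0.67), equal to 0.413 times the Control level. It missed the threshold in limma (adjusted p = 0.156) and in edgeR (adjusted p = 0.190), and passed it in DESeq2 (adjusted p = 0.0020) and, without LS1 replicate 1, in limma (adjusted p = 0.020). *Rag1* (ENSMUSG00000061311) had 4394, 5085 and 4724 normalized counts in Control and 4735, 2728 and 3593 in LS1. LS1 replicate 1 was inside the Control range, and the log2 fold change was -0.40 ± 0.19 (SE, limma adjusted p = 0.401). *Dntt* (ENSMUSG00000025014, chr19:41029275-41059525) had 5834, 6870 and 7191 normalized counts in Control and 5988, 2760 and 5801 in LS1. The low *Dntt* value stood in LS1 replicate 2 (41.6% of the Control mean), while the other LS1 libraries were at 90.3% and 87.5%. Its log2 fold change was -0.53 ± 0.28 (SE, 95% interval -1.16 to 0.096, limma adjusted p = 0.458).

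The proportion of the 2 recombinase transcripts lay apart in LS1 and Control. The log2 ratio of *Rag1* to *Rag2* was taken, as for all ratios here, on normalized counts with 1 added. It was 2.33, 2.33 and 2.26 over the Control libraries and 2.95, 3.37 and 3.25 over the LS1 libraries. On the linear scale this is 4.81 to 5.04 in Control against 7.72 to 10.3 in LS1. The lowest LS1 ratio was thus above the highest Control ratio, and the Control values were nearly equal. On the log2 scale the difference was 0.88, from 2.31 ± 0.038 in Control to 3.19 ± 0.22 in LS1 (SD, n = 3 each), a ratio 1.84 times as high. With 3 against 3 libraries the exact permutation test cannot go below p = 0.1, which is the value it gave (two-sided, 0.233 after adjustment over the 7 ratios computed). Because it is formed within a library, the ratio does not depend on how libraries were scaled, apart from the small effect of the 1 added to each count. The transcribed strand was not stated for the counting, and *B230118H07Rik* (chr2:101560781-101649532, minus strand) spans both genes. *B230118H07Rik* had 1967, 1683 and 1920 normalized counts in Control and 2750, 2421 and 2714 in LS1, higher in every LS1 library (log2 fold change 0.50, limma adjusted p = 0.236). It shares 0.73% of the 35-base stretches of the *Rag1* coding transcripts, and together with *Wipf3* it shares 5.55% of those of *Rag2*; the part of these reads in the ratio was not tested. Within 200 kb, the further tested neighbors were *Prr5l*, also higher in every LS1 library (log2 fold change 0.54, limma adjusted p = 0.255), and *Traf6* (0.06, limma adjusted p = 0.865). *B230118H07Rik* and *Prr5l* were below an unadjusted p of 0.05 (0.0047 and 0.0075, limma), as were 7.08% of all genes in that direction. LS1 libraries all lay above Control in 1981 of the 19308 genes tested. The 200 kb around *Vpreb1* and *Igll1* held 5 other tested genes, with log2 fold changes of -0.62 to 0.11 and none below an unadjusted p of 0.05.

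**Figure D2:**
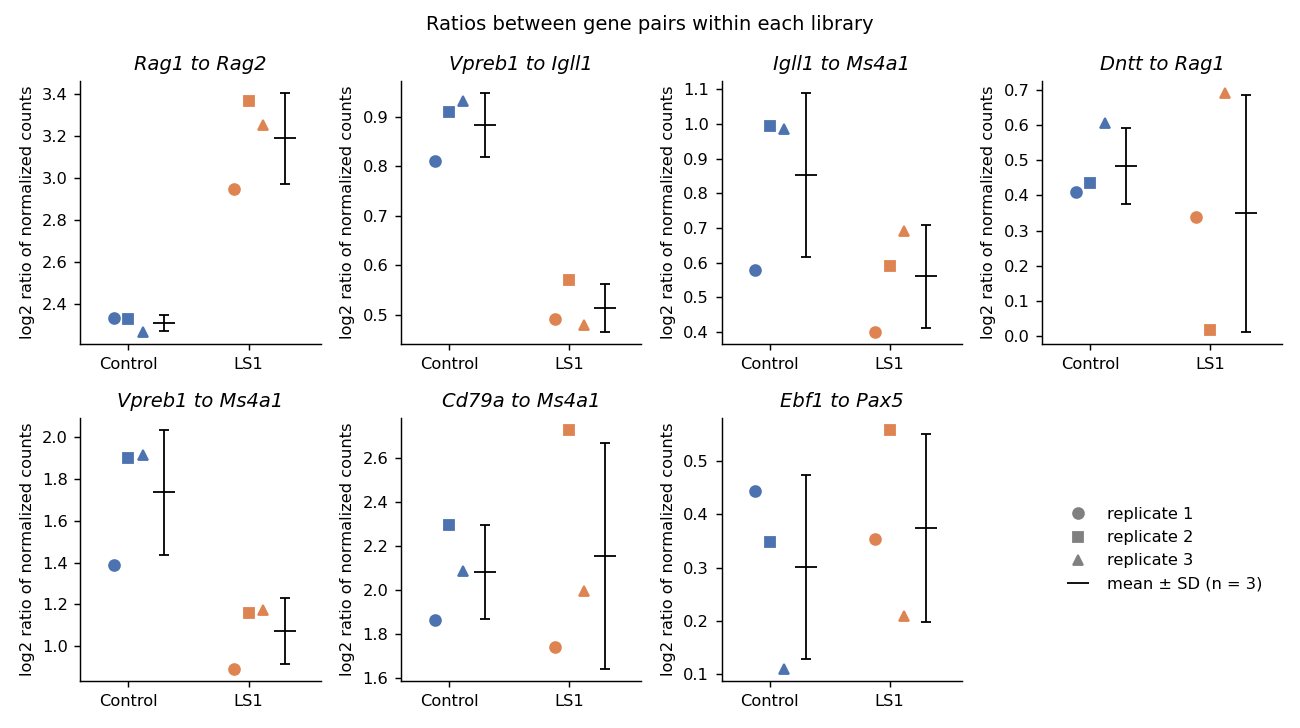
The log2 ratio of normalized counts of 7 gene pairs within each library (vertical axes, which do not start at 0), with the mean ± SD of 3 libraries per group. The groups are apart for *Rag1* to *Rag2* (higher in LS1), *Vpreb1* to *Igll1* and *Vpreb1* to *Ms4a1* (both lower in LS1), and overlap for the other pairs.

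Of the surrogate light chain genes, *Vpreb1* was lower in all LS1 libraries and *Igll1* was not. *Vpreb1* (ENSMUSG00000059305) had 6815, 6515 and 8243 normalized counts in Control and 4008, 3169 and 6346 in LS1. The groups did not overlap, but LS1 replicate 3 came close to the lowest Control library. The log2 fold change was -0.73 ± 0.22 (SE, n = 3 per group, 95% interval -1.23 to -0.23, limma adjusted p = 0.258). Without LS1 replicate 3 it was -1.01 and passed the threshold (limma adjusted p = 0.0091). *Igll1* (ENSMUSG00000075370) had 3887, 3469 and 4322 normalized counts in Control and 2852, 2136 and 4552 in LS1, so that LS1 replicates 1 and 2 were the lowest and LS1 replicate 3 the highest of all 6. The log2 fold change of *Igll1* was -0.36 ± 0.24 (SE, 95% interval -0.88 to 0.17, limma adjusted p = 0.554). The ratio of *Vpreb1* to *Igll1* ran from 1.75 to 1.91 in Control and from 1.39 to 1.48 in LS1. This difference of -0.37 on the log2 scale was present in all 3 LS1 libraries, LS1 replicate 3 included (exact permutation p = 0.1, the smallest possible, 0.233 adjusted). Reads of *Vpreb1* may be shared with its near copy *Vpreb2*, since 45.9% of the 35-base stretches of *Vpreb1* also occur in *Vpreb2*. *Vpreb2* itself was listed at 113, 144 and 139 normalized counts in Control and 93.3, 76.6 and 156 in LS1, far below *Vpreb1*.

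*Cd79a* and *Ms4a1* did not differ between the groups beyond the spread of the libraries. *Cd79a* serves the pre-B receptor as well as the B cell receptor, so it does not stand for late stages alone. The *Ms4a1* result does not extend to later B cell genes in general. Of the 12 later B cell surface genes given further on, 9 had negative log2 fold changes (median -0.45), against 49.3% of all genes tested. *Cd79a* (ENSMUSG00000003379, chr7:24897381-24902197) had 9480, 8544 and 9277 normalized counts in Control and 7225, 9386 and 11235 in LS1. Its LS1 values fell on both sides of the Control range, and LS1 replicate 2, the lowest library for the other genes, was at 103% of the Control mean. The log2 fold change was 0.0067 ± 0.16 (SE, 95% interval -0.35 to 0.36, limma adjusted p = 0.993). A processed pseudogene, *Gm32220*, shares 11.4% of the 35-base stretches of *Cd79a*. *Ms4a1* (ENSMUSG00000024673, chr19:11249675-11266241) had 2601, 1742 and 2183 normalized counts in Control and 2162, 1418 and 2819 in LS1. Its lowest and its highest library were both LS1, and the log2 fold change was -0.065 ± 0.24 (SE, 95% interval -0.60 to 0.47, limma adjusted p = 0.935). The interval of *Ms4a1* includes differences as large as those estimated for *Ebf1* or *Igll1*.

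Set against *Ms4a1*, *Vpreb1* was lower in LS1. Control libraries had log2 ratios of *Vpreb1* to *Ms4a1* of 1.39, 1.90 and 1.92 and LS1 libraries 0.89, 1.16 and 1.17, a difference of -0.66 with no overlap (exact permutation p = 0.1, 0.233 adjusted). The ratio of *Igll1* to *Ms4a1* went the same way by -0.29 but overlapped (exact permutation p = 0.3). *Cd79a* to *Ms4a1* differed by 0.072 (exact permutation p = 0.9), and *Dntt* to *Rag1* by -0.13 (exact permutation p = 0.6). LS1 replicate 2 had the lowest *Dntt* to *Rag1* ratio of all libraries, 0.016 on the log2 scale, against 0.34 to 0.69 in the other LS1 libraries.

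**Figure D3:**
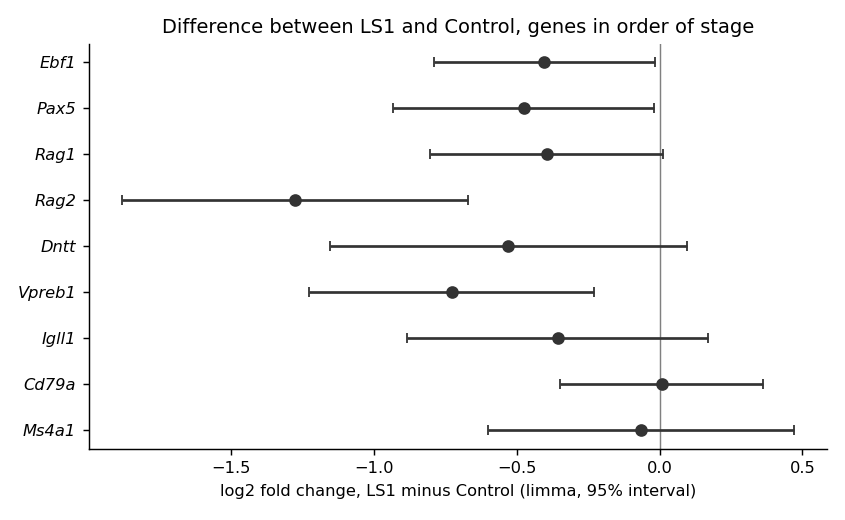
Log2 fold change of LS1 minus Control for the 9 genes in order of stage, with the 95% interval of limma (horizontal axis, 0 marked by the vertical line). The intervals of *Ebf1*, *Pax5*, *Rag2* and *Vpreb1* lie below 0 before adjustment, and those of *Cd79a* and *Ms4a1* are centered near 0.

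LS1 libraries differed more among themselves than Control libraries did. Over the 3 libraries of a group the coefficient of variation ran from 3.92% to 19.8% for Control but from 21.6% to 42.6% for LS1, and it was larger in LS1 for each of the 9 genes. LS1 replicate 2 was the lowest library for 8 of the 9 genes. LS1 replicate 3 was above the Control mean for *Igll1*, *Cd79a* and *Ms4a1*, and was the highest of all libraries for these 3. Without LS1 replicate 2, the median log2 fold change of the 9 genes was -0.20 in place of -0.40, and that of *Rag2* was -0.99. The groups were fully apart, LS1 low, in 3 of the 9 genes (*Pax5*, *Rag2* and *Vpreb1*) and in 8.94% of all genes tested. They were fully apart with LS1 high in 0 of the 9 genes and in 1981 of the 19308 genes tested. By shape of profile over the 6 libraries, *Ebf1* and *Rag1* were the most alike of the 36 pairs (root mean square difference 0.11 on the log2 scale), followed by *Pax5* with *Rag1* and with *Dntt* (both 0.13). *Rag2* and *Cd79a* were the least alike (0.82).

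Per kilobase of exon, the genes spanned a wide range of levels in Control. *Cd79a* stood highest at 6246 ± 338 normalized counts per kilobase (SD, n = 3), and *Vpreb1* followed at 5998 ± 770, which overlaps it. *Dntt* had 2893 ± 309 and *Igll1* 1799 ± 197 per kilobase, each apart from its neighbors in the order. *Rag1* had 716 ± 52.3 per kilobase, above *Ebf1* (591 ± 49.9) and *Pax5* (527 ± 20.7), which overlapped each other. On this scale *Ms4a1* (352 ± 69.5) and *Rag2* (279 ± 21.8) were lowest and also overlapped. The order of the group means was the same in LS1, where *Cd79a* had 6371 ± 1378 and *Rag2* 122 ± 52.0 per kilobase. Lengths from all annotated exons include retained introns, and with the longest coding transcript instead *Vpreb1* came first (9388 per kilobase) and *Igll1* (4474) stood ahead of *Dntt* (3113), *Ebf1* (963) ahead of *Rag1* (716) and *Ms4a1* (707) ahead of *Pax5* (583).

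The wider B lineage lists gave the surroundings of these genes, 68 of 69 matched genes being tested. None passed in limma, 22 were lower and 3 higher in LS1 at an unadjusted p below 0.05, where all genes gave 5.86% and 7.08%, and their median log2 fold change was -0.27. DESeq2 called 8 of them, all lower, beside 0.991% of all genes. Components and signaling partners of the pre-B receptor had a median of -0.46 over 11 genes (-0.27 without LS1 replicate 2), with 7 lower at an unadjusted p below 0.05. Among them *Blk*, a Src family kinase of B cells, had 2659, 2882 and 2858 normalized counts in Control and 1448, 1288 and 2007 in LS1 (log2 fold change -0.85, limma adjusted p = 0.142). It was below Control in all LS1 libraries and was among the genes called by DESeq2, as was *Syk*.

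For the 12 later B cell surface genes the median log2 fold change was -0.45, with 5 lower and 1 higher before adjustment. Lowest were *Cd37*, a tetraspanin gene (-0.82), the transcription factor gene *Spib* (-0.78) and *Cd72* (-0.75), each below Control in all LS1 libraries and each called by DESeq2, with *Cd22* as the other call in this list. *Cd74*, the invariant chain of MHC class II, went the other way at 1.22. It had 5686, 26487 and 7595 normalized counts in LS1 against 3791 to 5435 in Control. *Cd40* (0.69), the gene that was higher before adjustment, had 1071, 2190 and 905 in LS1 against 668 to 873 in Control. Both were thus above Control in all LS1 libraries, as were 1981 of the 19308 genes tested, and most so in LS1 replicate 2. All 6 immunoglobulin constant genes had negative log2 fold changes, from -1.06 for *Ighd* to -0.31 for *Iglc3*, and *Ighm* was at -0.43. *Ighd*, which encodes the IgD heavy chain of mature B cells, had 2127, 2257 and 1581 normalized counts in Control and 1056, 691 and 1149 in LS1 (limma adjusted p = 0.142), and was called by DESeq2. Reads of the similar *Iglc* genes may be split among them.

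Regulators of the early B lineage had a smaller median, -0.25 over 16 genes, led by *Bach2* (-0.61), *Irf4* (-0.60) and *Pou2af1* (-0.52), with *Irf8* highest at 0.50. The 9 V(D)J joining genes had a median of -0.15 and none below an unadjusted p of 0.05. Most of them serve to repair the cuts made by RAG1 and RAG2 and also general DNA repair. Of 4 progenitor receptor genes, the interleukin-7 receptor gene *Il7r* was lowest at -0.57 (limma adjusted p = 0.337), and *Flt3* highest at 0.43. Plasma cell genes had a median of 0.20 over 5 tested genes, which went both ways. *Jchain* (-0.93) and *Mzb1* (-0.54) were negative, and *Prdm1* (0.20), *Sdc1* (0.24) and *Xbp1* (0.32) positive. In every LS1 library *Mzb1* was below and *Xbp1* above the Control range (limma adjusted p = 0.325 and 0.339). Factors made by the marrow niche were not lower. All 5 had positive log2 fold changes, *Il7* at 0.34 ± 0.27 (SE) and *Kitl*, the largest, at 0.47 ± 0.14 (SE, limma adjusted p = 0.247).

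**Figure D4:**
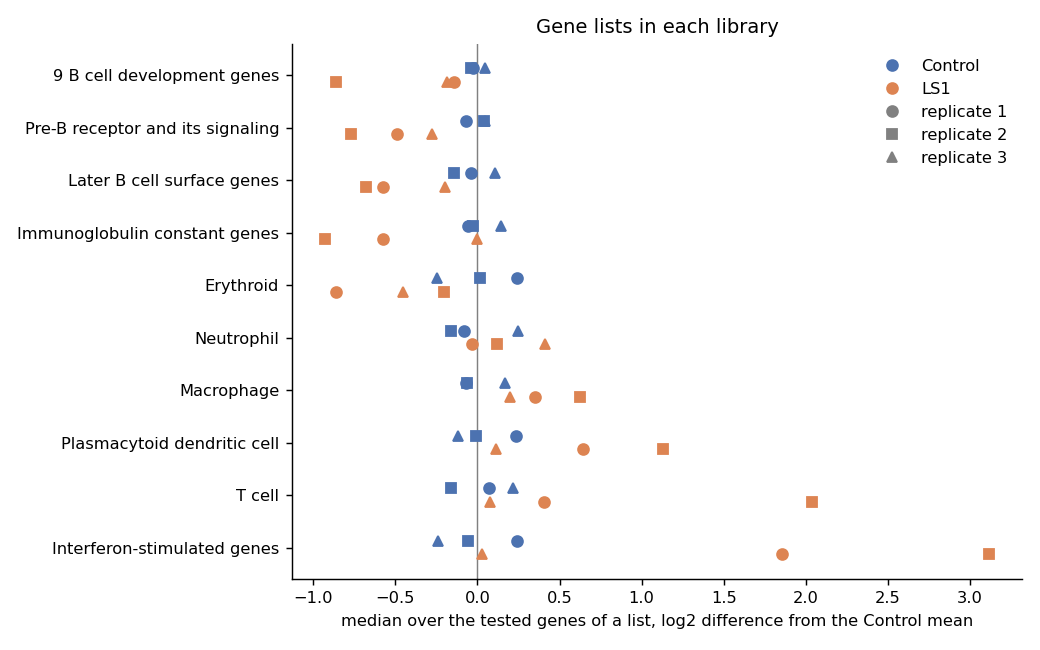
Median over the tested genes of each list, as the log2 difference of a library from the Control mean (horizontal axis), with 1 point per library. LS1 replicate 2 is lowest for the 9 genes (-0.86) and highest for interferon-stimulated (3.12) and T cell genes (2.04), while LS1 replicate 3 stays near the Control libraries for both of the latter.

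Markers of other cell types were read beside these values. Early thymocytes also use *Rag1*, *Rag2* and *Dntt*, and *Ptcra*, the pre-T receptor chain that defines them, was listed at 6.05, 8.87 and 8.85 normalized counts in Control and 1.90, 2.61 and 4.66 in LS1. *Ptcra* was lower in all 3 LS1 libraries, at levels too low to be tested. The median log2 fold change of the other 10 T cell genes was 0.85 and none passed the test, and the 11 T cell genes summed to 5445 in LS1 replicate 2, 2561 and 2619 in the other LS1 libraries and 1990 to 2753 in Control. *Cd8a* in particular had 568 normalized counts in LS1 replicate 2 against 9.08 to 29.9 in Control. Plasmacytoid dendritic cells can carry *Dntt* and *Rag* transcripts, and their 7 markers had a median of 0.68 with sums of 10513 to 11821 in Control and 14301, 12416 and 11418 in LS1. Most of these sums was *Tcf4* (log2 fold change 0.12), with 7936 to 9242 in Control and 11414, 8246 and 8725 in LS1. *Klk1* (2.50) and *Ccr9* (1.32) were the highest of the 7 and *Cox6a2* (-0.46) the lowest. *Ccr9* had 209, 305 and 98.9 normalized counts in LS1 against 49.8 to 96.9 in Control. The part of either cell type in the *Rag1*, *Rag2* and *Dntt* values was not tested.

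The remaining lists give the makeup of the tissue. Chondrocyte genes had a median of 0.61 on the log2 scale over 11 genes, with 7 higher at an unadjusted p below 0.05 (7.08% over all genes) and none past adjustment in limma. DESeq2, which called 1.52% of all genes higher (276 of 18171), called 5 of the 11 chondrocyte genes higher, as well as 4 interferon-stimulated genes, 2 plasmacytoid dendritic cell genes and 1 macrophage gene. Macrophage genes had a median of 0.38 over 12 genes. Neutrophil genes had a median of 0.22 over 12 genes, marrow stroma and adipocyte genes 0.25 over 9, and interferon-stimulated genes 1.62 over 15. Erythroid genes had a median of -0.52 over 11 genes, with sums of 424066 to 537090 normalized counts in Control and 291856, 467966 and 376348 in LS1, and 7 skeletal muscle genes a median of -0.68. Erythroid genes were lowest in LS1 replicate 1 and the 9 B cell genes in LS1 replicate 2. The part of the interferon-stimulated genes, of the T cell genes or of a larger share of cartilage in the lower B lineage values was not tested.

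Outside these lists, the genes whose profile over the 6 libraries was nearest to the mean of the 9 genes were *Rps27a*, a ribosomal protein gene, *St6galnac3*, *Slc24a3*, *Mlxipl* and *Jakmip1*, with root mean square differences of 0.076 to 0.083 on the log2 scale. Nearest to *Ebf1* alone were the histone gene *Hist1h4i* (0.069), *Slamf6*, which encodes a receptor of lymphocytes (0.086), *Spcs2-ps*, *1500011B03Rik* and *Gm10154*. With only 6 libraries and 19308 genes, close profiles of this kind describe these libraries and no more.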

How the data were processed

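Polyadenylated RNA from the pooled proximal tibial epiphyses of each mouse was sequenced by the authors as short paired-end reads, mapped to GRCm38 with HISAT2 v2.0.2, counted per Ensembl gene with featureCounts v1.4.6 and divided by the DESeq2 size factor of the library. The deposited signal is this normalized count, and whole reads were recovered for 100% of values (tolerance 0.001). Strandedness and the treatment of reads matching several genes are not given in the sources used here. Symbols and coordinates came from GENCODE M21 (98.9% of identifiers matched) and promoters from RefSeq. A mean of 20 or more recovered reads was required, and limma 3.58.1 (R 4.3.3) was applied to log2(value + 1) with trend and robust moderation and Benjamini-Hochberg adjustment at 0.05 over 19308 genes. The fits were tested on simulated data. edgeR 4.0.16, DESeq2 1.42.0 and other scalings, filters, pseudocounts and left-out libraries were alternatives. Ratios were compared with exact permutation tests (scipy 1.17.1). The smallest p for 3 against 3 is 0.1.

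The 9 genes, the lists and the tests were chosen with earlier results of these data known. Named from each list were at most the 3 highest and the 3 lowest log2 fold changes and any gene past the threshold, with *Vpreb2*, the other *Ebf* genes and the 5 nearest profiles. *Syk*, *Cd22*, the neighboring genes and the genes named only for a left-out library were added after their values were seen. *Flt3l* and *Ahsp* were not matched and *Tnfrsf17* and *Ptcra* were too low to test. The letters A, B and C that open the sample titles were checked as pairs. The deviations of same-letter libraries correlated at 0.054, 0.021 and 0.224, and those of different-letter libraries at -0.147 to 0.116. With 3 libraries per group, these values cannot show that pairing is absent. The samples were not treated as paired in the main fit, and a fit with the letter as a block is given below. The lowest count among the 9 genes was 303 reads, of *Rag2* in 1 library.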

Additional observations from a re-analysis of the deposited data

How the results depend on the processing

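Under 17 alternatives, the 9 genes gave 143 values that kept the direction and side of the threshold, 3 that came past it and 7 that changed sign. *Rag2* (-1.59 to -0.99) and *Vpreb1* (-1.01 to -0.50) were negative in all 17, with adjusted p from 0.0020 to 0.418 and from 0.0091 to 0.530. DESeq2 called 1 of the 9 genes (*Rag2*) and 8 wider B lineage genes. Leaving out a library in turn gave 0 to 1 of the 9 genes, *Rag2* without LS1 replicate 1 (log2 fold change -1.59, limma adjusted p = 0.020) and *Vpreb1* without LS1 replicate 3 (-1.01, limma adjusted p = 0.0091), and 0 to 8 of the wider genes, the 8 coming without LS1 replicate 3 (among them *Vpreb3*, *Cd79b*, *Blk*, *Cd72*, *Fcrla*, *Spib* and *Ighd*). The median of the wider genes then ran from -0.27 to -0.19. The median of the 9 genes ran from -0.59 to -0.20.

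The sign changes were all in genes near 0. *Cd79a* was at -0.0047 with total-count scaling and at -0.14 to 0.18 with a library left out, negative without Control replicate 2 (-0.038), LS1 replicate 2 (-0.013) or LS1 replicate 3 (-0.14). *Ms4a1* was at -0.29 to 0.20 with a library left out, positive without Control replicate 1 (0.073) or LS1 replicate 2 (0.20), and at 0.10 in edgeR without the reads of Control replicate 1, an alternative chosen after seeing the data because its reads were recovered least surely. The cause was not tested.

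Over all genes the 14 calls became 7 in edgeR, 456 in DESeq2, 45 without the filter, 9 with a mean of at least 100 reads and 3 without trend and robust moderation. Leaving out LS1 replicates 1, 2 and 3 gave 48, 12 and 324 calls, and leaving out Control replicates 1, 2 and 3 gave 9, 5 and 15. With the letter as a replicate block 12 genes were called and 0 of the 9; *Rag2* had an adjusted p of 0.112 and *Vpreb1* of 0.094 in limma. The *Rag1* to *Rag2* difference stayed between 0.79 and 1.00 and that of *Vpreb1* to *Igll1* between -0.41 and -0.35 without any 1 library, and *Vpreb1* to *Ms4a1* between -0.84 and -0.57.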
